A study of Mus musculus with 12 samples.

Results

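The endoplasmic reticulum (ER) genes described here are 47 of the 23284 gene symbols in the RNA sequencing table of a mouse T cell leukemia line. They were chosen by known function, but with earlier results of these data known, so their counts and medians beside those of all genes are descriptive. They fall into 6 roles: 9 chaperones of the HSP70 and HSP90 systems with their partners, 10 genes of oxidative folding, 5 lectin chaperones and prolyl isomerases, 6 stress sensors and proteases, 8 genes of ER-associated degradation, and 9 genes of the translocon and signal peptidase. All 47 symbols were in the table, and 46 averaged 1 FPKM or more across all 12 libraries and were tested. Derl3 fell under that minimum and was tested only in a fit without it. FPKM means fragments per kilobase of transcript, scaled to the fragments mapped, so it is a level per length.

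The study asked how the coactivator Zmiz1 acts with Notch1, a receptor whose cleaved intracellular part drives transcription in T cell leukemia. Every library came from the line 8946, whose cells had received a pair of retroviruses and were sorted as GFP+/NGFR+. The control group (3 libraries) carried the empty MigR1 vector with GFP and the empty NGFR vector. The Zmiz1 group (3 libraries) carried Zmiz1 with NGFR, the Notch1 group (3 libraries) carried the Notch1 mutant L1601P with GFP, and the Notch1+Zmiz1 group (3 libraries), called combined here, carried both. No untransduced cells were among the libraries, all came from a single leukemia line, and both genes were raised from retroviruses. The labels do not say whether the replicates were separate transductions or cultures, so the p-values measure the spread between these libraries, which may be technical.

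Proteins that are secreted or sit in membranes enter the ER through the Sec61 channel, where chaperones such as BiP (the product of Hspa5), protein disulfide isomerases and lectin chaperones help them fold. When unfolded protein builds up, the sensors IRE1 (Ern1), ATF6 and PERK (Eif2ak3) start the unfolded protein response: IRE1 splices Xbp1 mRNA, cleaved ATF6 enters the nucleus, and PERK slows translation. Both transcription factors raise chaperone and degradation genes, many through a promoter motif called the ER stress response element (ERSE), and proteins that cannot be folded leave the ER for the proteasome.

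Before the results, 3 facts of the libraries bear on them. The labels of the single-vector groups contradict each other: where the title says Zmiz1 the cell line field reads L1601P/NGFR, and where it says Notch1 the field reads MigR1/Zmiz1. The grouping here follows the titles and the column headers, and the vector genes go with it: Notch1 was at 32.1 ± 10.1 FPKM (SD, n = 3) in the libraries titled Notch1 against 1.92 to 2.34 in those titled Zmiz1, while Zmiz1 was at 0.212 ± 0.0153 and 70.8 ± 3.39 FPKM. Zmiz1 replicate 2 stood apart from the other Zmiz1 libraries in many of the genes below, and replicate number 1 stood apart in all 4 groups. All 8 T cell markers were above 1 FPKM, and their sum was lower in Zmiz1 (2666 to 2950 FPKM) than in control (3159 to 3270), Notch1 (3274 to 3722) and combined libraries (3086 to 3233). The sum of 6 myeloid markers was lower with Notch1 (53.1 to 60.2 FPKM) and in the combined libraries (60.9 to 63.1) than in control (99.2 to 103) and Zmiz1 libraries (93.5 to 101). Only Itgam and Cd68 of those 6 were above 1 FPKM on average and Elane was at 0 in every library. The part of either marker list in the results on ER genes was not tested.

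With the Notch1 mutant, 22 of the 46 tested ER genes rose, and the largest rises were among chaperones and disulfide isomerases. Differences are given as log2(FPKM + 1) with their standard error from a limma model of all 12 libraries, and a gene is said to have risen or fallen where its p-value, adjusted over all 10152 genes tested, was under 0.05. In Notch1 against control libraries, beside these 22 rises 1 of the 46 fell, where 3.19% of all genes tested rose and 2.30% fell. The median difference over the 46 was 0.34, against 0.02 over all genes tested. The second comparison, combined against Zmiz1 libraries, shares no library with the first but takes its estimate of the spread from the same fit. In it 25 rose and 1 fell, where 2.67% of all genes rose and 1.19% fell. The median was 0.48 over the 46 and 0.02 over all genes. All 22 genes that rose in the first comparison also rose in the second, which added Edem2, Sec61b and Sec11c, and Atf6 fell in both. In bulk RNA of sorted cells, a change in the make-up of the cells and a change of RNA per cell cannot be told apart.

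In the combined against the control libraries 29 of 46 rose and 1 fell, against 3.97% and 2.49% of all genes, with a median of 0.49 against 0.02. Against the same controls Zmiz1 alone changed 0 of the 46 genes by the limma test, where 1.07% of all genes rose and 1.03% fell, and 2 were under an unadjusted p of 0.05 (12.8% of all genes). These 3 comparisons share the control libraries. The libraries did not overlap between Notch1 and control for 30 of the 46 genes, 28 of them higher with Notch1 (15.8% of all genes tested) and 2 lower (10.3%). The median over the 46 of Notch1 against control was 0.28 within replicate number 1 and 0.38 within numbers 2 and 3, and that of combined against Zmiz1 was 0.43 and 0.48.

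**Figure D1:**
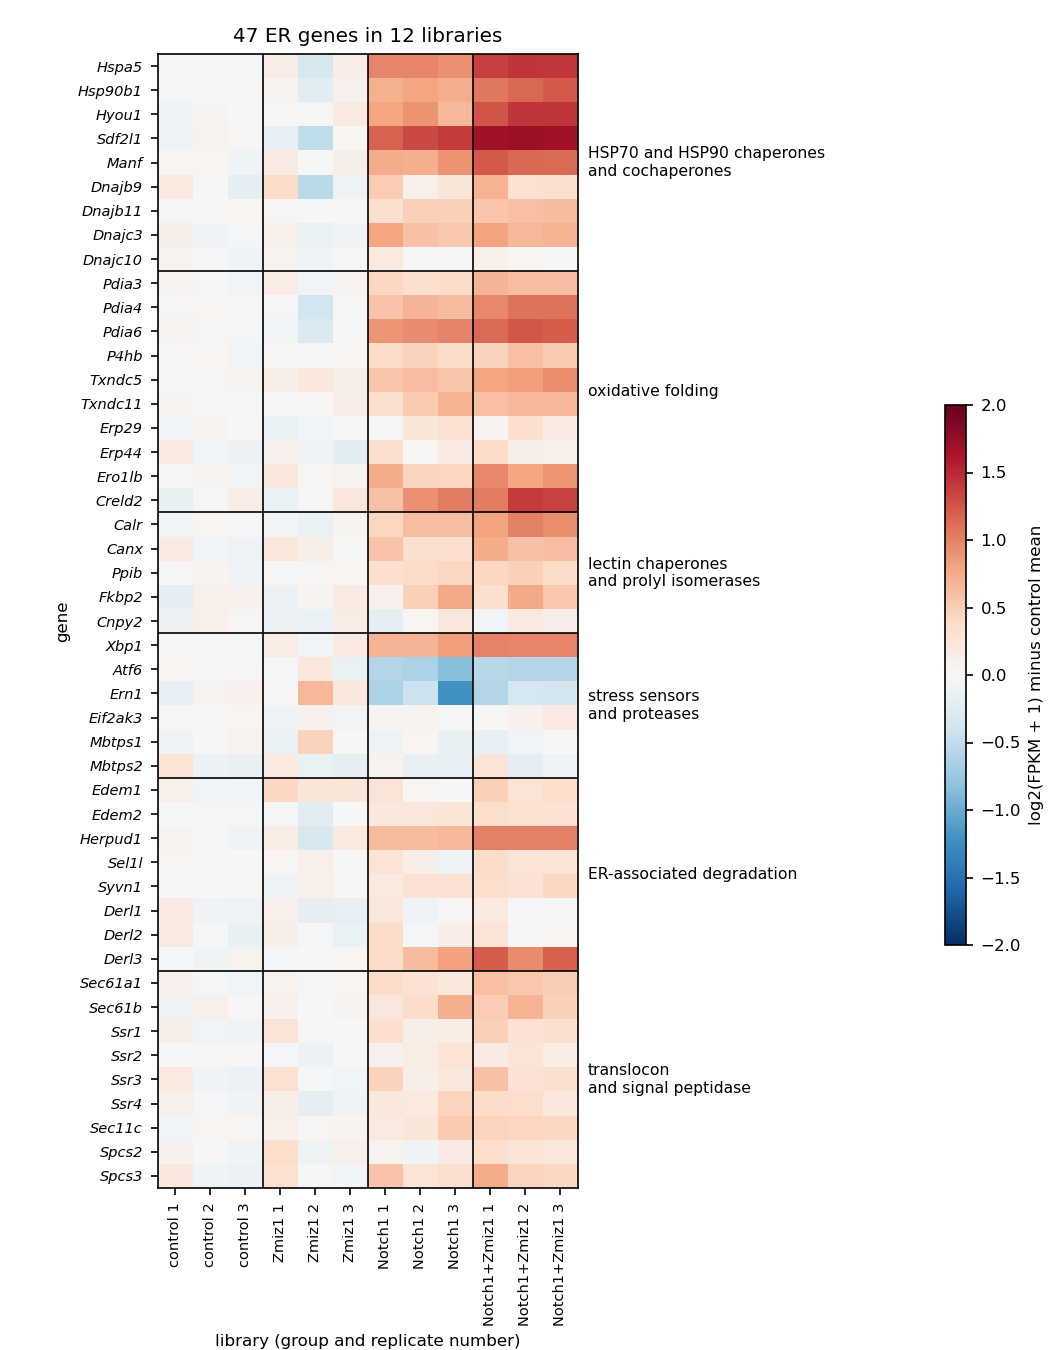
Each row is 1 of the 47 ER genes, ordered by role, and each column 1 of the 12 libraries; color gives log2(FPKM + 1) minus the mean of the 3 control libraries. Red runs through the chaperone and oxidative folding rows in the 6 libraries with the Notch1 mutant, Atf6 and Ern1 are blue there, and Zmiz1 replicate 2 differs from its neighbors in rows such as Hspa5, Sdf2l1 and Ern1.

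The promoters of these genes show how often the ERSE occurs among them. RefSeq's promoter table (build GRCm38.p6, the sequence of mm10) held 38 of the 47 genes, and the 250 bases before each start site were searched on both strands. Only exact matches of the fixed letters were counted, so sites that differ in any fixed letter were missed. The ERSE, searched as CCAAT and CCACG with 9 bases of any kind between them, was found in 10 of the 38 genes (26.3%) and in 35 of all 27025 genes with an entry (0.130%), or 0.113% of 32851 promoters. The ERSE is a known mark of this response, so genes picked for their part in it are not independent of the motif. The related ERSE-II, searched as ATTGG and CCACG with 1 base between them, was found in Herpud1 (0.0370% of all genes), and the UPRE, a site bound by XBP1 and ATF6, searched as TGACGTGG, in Txndc5 and Txndc11 (0.603% of all genes). No gene of the 38 held more than 1 of the 3 motifs, so no matches of different motifs overlapped. The whole 250 bases before Hspa5 are shown first because it is the classic ERSE gene, with the motif's fixed letters in capitals.
Hspa5, chr2:34771840-34772089, plus strand: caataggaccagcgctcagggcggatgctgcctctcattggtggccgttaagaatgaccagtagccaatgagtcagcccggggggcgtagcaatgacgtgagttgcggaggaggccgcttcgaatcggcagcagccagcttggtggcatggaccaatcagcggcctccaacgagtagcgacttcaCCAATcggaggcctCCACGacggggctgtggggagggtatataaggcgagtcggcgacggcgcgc

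The exact match in Hspa5 ended 46 bases before the start site. Further upstream, ccaatcagcggcctccaac has the same spacing but differs in a fixed letter and was not counted. To let the matches be compared, stretches of 39 bases around them follow, each in the direction of the motif with the fixed letters in capitals, for genes whose values are given below.
Hsp90b1, first match, chr10:86705628-86705666, minus strand: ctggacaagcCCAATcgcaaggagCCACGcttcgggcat
Hsp90b1, second match, chr10:86705523-86705561, plus strand: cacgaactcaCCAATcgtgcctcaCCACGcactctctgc
Dnajc3, chr14:118937817-118937855, plus strand: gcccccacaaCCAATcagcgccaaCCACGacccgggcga
Pdia6, chr12:17266481-17266519, plus strand: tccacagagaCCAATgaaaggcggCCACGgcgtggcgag
Ero1lb, chr13:12565672-12565710, minus strand: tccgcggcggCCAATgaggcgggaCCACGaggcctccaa
Creld2, chr15:88819510-88819548, minus strand: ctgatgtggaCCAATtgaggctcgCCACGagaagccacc
Calr, chr8:84847065-84847103, plus strand: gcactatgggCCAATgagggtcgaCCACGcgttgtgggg
Canx, chr11:50325790-50325828, minus strand: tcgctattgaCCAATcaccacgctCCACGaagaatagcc
Syvn1, chr19:6046522-6046560, plus strand: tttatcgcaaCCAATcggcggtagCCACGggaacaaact
Derl3, chr10:75893232-75893270, minus strand: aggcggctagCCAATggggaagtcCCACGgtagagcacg

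The ERSE-II of Herpud1 and the UPRE of Txndc5 and Txndc11 are shown the same way, since these genes rose as well. RefSeq lists 3 promoters for Txndc5 and 2 for Txndc11. Each UPRE match lay inside the gene, before an alternative start site only.
Herpud1, ERSE-II, chr8:94386367-94386397, plus strand: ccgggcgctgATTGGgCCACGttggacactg
Txndc5, UPRE, chr13:38528035-38528062, minus strand: gcctcgccgcTGACGTGGcgctagccgc
Txndc11, UPRE, chr16:11134617-11134644, minus strand: gaagtgtggcTGACGTGGagagtccggg

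Among the chaperones, 7 of 9 rose with Notch1 against control and the same number rose in combined against Zmiz1 libraries, with medians of 0.75 and 1.07. Combined against control, it was again 7 of 9, with a median of 1.14. Hspa5 encodes BiP, the HSP70 of the ER lumen, which also holds the stress sensors inactive. It was at 152, 151 and 146 FPKM in the control libraries, 165, 119 and 164 with Zmiz1, 295, 295 and 283 with Notch1, and 389, 404 and 402 with both. The libraries with the Notch1 mutant lay above all those without it, and the combined above the Notch1 libraries, while Zmiz1 replicate 2 was the lowest of all. Hspa5 rose by 0.96 ± 0.10 with Notch1 (adjusted p = 0.000377) and by 1.42 ± 0.10 in combined against Zmiz1 libraries (adjusted p = 2.07e-05). In FPKM the Notch1 mean was 1.95 times and the combined mean 2.66 times the control mean.

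Sdf2l1, a partner of BiP and its J-proteins that keeps clients from aggregating, had the largest differences of the 46. Its levels were 17.8, 20.1 and 19.3 FPKM in the control libraries, 16.8, 13.1 and 19.5 with Zmiz1, 44.5, 48.7 and 51.8 with Notch1, and 62.9, 64.6 and 63.3 with both. Groups with and without the Notch1 mutant were far apart, and the combined libraries lay above the Notch1 libraries. The differences were 1.30 ± 0.12 for Notch1 against control (adjusted p = 9.73e-05) and 1.90 ± 0.12 for combined against Zmiz1 (adjusted p = 4.46e-06). No exact match of the 3 motifs was in the Sdf2l1 promoter window.

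Hyou1, a large HSP70 relative that serves as nucleotide exchange factor for BiP, was at 27.6, 30.2 and 29.2 FPKM in the control libraries, 28.7, 29.6 and 33.0 with Zmiz1, 50.7, 54.6 and 46.6 with Notch1, and 70.8, 79.4 and 80.2 with both. Here no group with the mutant overlapped one without it, and the combined libraries were all above the Notch1 libraries. It rose by 0.78 ± 0.08 with Notch1 (adjusted p = 0.000243) and by 1.31 ± 0.08 in combined against Zmiz1 libraries (adjusted p = 4.46e-06). Hsp90b1, the HSP90 of the ER (GRP94), had means of 153 ± 3.32 in control, 151 ± 17.7 with Zmiz1, 258 ± 7.55 with Notch1 and 340.1 ± 19.7 FPKM with both (SD, n = 3). It rose by 0.75 ± 0.08 (adjusted p = 0.000361) and 1.17 ± 0.08 (adjusted p = 1.31e-05) in the same 2 comparisons.

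Manf encodes a small secreted protein of the ER that binds BiP, and it rose by 0.79 ± 0.07 with Notch1 and by 1.07 ± 0.07 in combined against Zmiz1 libraries. The J-domain cochaperones, which hand clients to BiP, differed among themselves. Dnajb11 rose by 0.42 ± 0.06 and 0.59 ± 0.06, and Dnajc3, also known as an inhibitor of PERK, by 0.63 ± 0.09 and 0.76 ± 0.09. Adjusted p-values of these 3 genes lay between 8.96e-06 (Manf) and 0.00199 (Dnajc3). Dnajb9, which helps BiP bind IRE1 and is a known target of spliced XBP1, did not pass in either comparison, with 0.28 ± 0.21 (adjusted p = 0.539) and 0.53 ± 0.21 (adjusted p = 0.244). Dnajb9 passed in the second when the fit held a term for the replicate number. Its Zmiz1 libraries ran from 6.21 to 12.6 FPKM, and replicate number 1 was the highest in each group. Dnajc10, a J-protein that reduces disulfides, was at 0.08 and 0.07 and passed in neither.

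**Figure D2:**
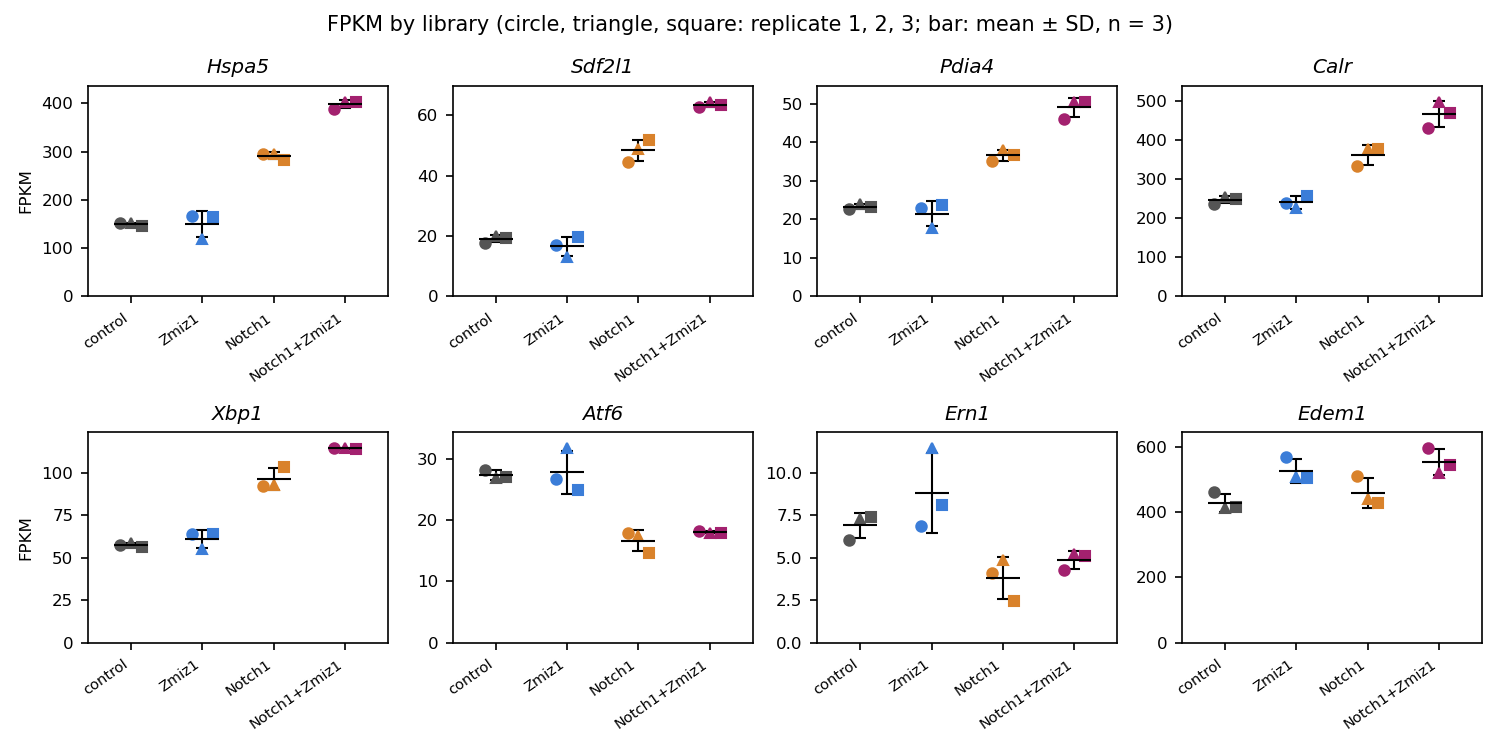
FPKM of 8 ER genes by group, with symbols for the replicate number and bars for the mean ± SD of 3 libraries, each axis starting at 0. Hspa5, Sdf2l1, Pdia4, Calr and Xbp1 climb from control and Zmiz1 to Notch1 to combined libraries, Atf6 and Ern1 are lower in the libraries with the Notch1 mutant, and the mean of Edem1 is higher in each group with Zmiz1 than in its counterpart without it.

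Oxidative folding genes make, move and break disulfide bonds, and 8 of 10 rose in both Notch1 comparisons, with medians of 0.53 (Notch1 against control) and 0.64 (combined against Zmiz1). Pdia6, a disulfide isomerase that also tunes IRE1, was at 93.9, 89.6 and 88.8 FPKM in the control libraries, 87.5, 73.7 and 89.8 with Zmiz1, 168, 176 and 181 with Notch1, and 200.5, 216 and 210.3 with both. Its groups with and without the mutant were apart, and it rose by 0.94 ± 0.07 (adjusted p = 3.76e-05) and 1.31 ± 0.07 (adjusted p = 2.78e-06). Creld2, an ER resident with disulfide isomerase activity, rose by 0.85 ± 0.14 (adjusted p = 0.00558) and 1.23 ± 0.14 (adjusted p = 0.000620). Replicate 1 was the lowest Creld2 library in all 4 groups, at 35.6 in control, 35.7 with Zmiz1, 60.1 with Notch1 and 81.6 FPKM with both.

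Pdia4, the disulfide isomerase also known as ERp72, was at 22.6, 23.9 and 23.1 FPKM in the control libraries, 22.9, 17.7 and 23.6 with Zmiz1, 35.1, 37.9 and 36.6 with Notch1, and 46.1, 50.6 and 50.4 with both. Notch1 and combined libraries lay above the others and did not overlap each other, and Zmiz1 replicate 2 was the lowest. Pdia4 rose by 0.63 ± 0.09 (adjusted p = 0.00273) and 1.17 ± 0.09 (adjusted p = 4.17e-05). Txndc5 rose by 0.58 ± 0.06 and 0.70 ± 0.06, Txndc11 by 0.52 ± 0.08 and 0.57 ± 0.08, and P4hb, the founding disulfide isomerase, by 0.41 ± 0.06 and 0.52 ± 0.06. Pdia3, the isomerase that works with the lectin chaperones and in MHC class I loading, rose by 0.37 ± 0.06 and 0.59 ± 0.06. Ero1lb, the oxidase that feeds disulfides to the isomerases, was the least abundant tested gene of the 46, at 3.46 ± 0.184 FPKM in control and 5.50 ± 0.810 with Notch1 (SD, n = 3), and rose by 0.54 ± 0.09 and 0.77 ± 0.09. The adjusted p-values of these 5 genes were at most 0.00732 (Ero1lb, Notch1 against control). Erp29 and Erp44, which hold clients in the ER and early secretory path, were at 0.17 and 0.18 with Notch1 and passed in neither comparison. With a term for the replicate number in the fit, Erp44 passed in combined against Zmiz1 libraries.

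The lectin chaperones calreticulin (Calr) and calnexin (Canx) bind sugar chains of new glycoproteins, and prolyl isomerases turn peptide bonds before proline. In this role 3 of 5 genes rose in both comparisons. Calr was at 238, 255 and 248 FPKM in the control libraries, 239, 226 and 257 with Zmiz1, 333, 378 and 377 with Notch1, and 432, 499.5 and 470.3 with both. Notch1 libraries were above control, combined above Notch1, and Zmiz1 overlapped control. It rose by 0.55 ± 0.08 (adjusted p = 0.00174) and 0.95 ± 0.08 (adjusted p = 3.91e-05). Canx rose by 0.41 ± 0.09 with Notch1 (adjusted p = 0.0300) and by 0.54 ± 0.09 in combined against Zmiz1 libraries. The first of these calls was lost without any 1 of 6 libraries (control replicate 2 or 3, any Notch1 library, combined replicate 3), at adjusted p-values of 0.0504 to 0.123. It was also lost with median ratio scaling, quantile normalization or only the compared groups in the fit (adjusted p = 0.0559, 0.0725 and 0.0883). Ppib, cyclophilin B, rose by 0.38 ± 0.05 and 0.40 ± 0.05 (adjusted p = 0.00155 and 0.00140). Fkbp2 was at 0.44 ± 0.16 and 0.51 ± 0.16 and did not pass (adjusted p = 0.167 and 0.140), and Cnpy2 was at 0.03 and 0.13. Fkbp2 passed in both comparisons when the fit held a term for the replicate number.

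Of the 6 sensors and proteases, 1 rose, 1 fell and 4 did not pass in both comparisons, with medians of -0.07 in each. Xbp1, the transcription factor spliced by IRE1, was at 57.4, 58.4 and 56.1 FPKM in the control libraries, 63.9, 55.1 and 64.0 with Zmiz1, 92.0, 92.8 and 104 with Notch1, and 114, 114 and 114 with both. Libraries with the Notch1 mutant were all above those without it, and the 3 combined libraries were nearly equal. Xbp1 rose by 0.73 ± 0.07 (adjusted p = 0.000134) and 0.90 ± 0.07 (adjusted p = 2.65e-05). A value per gene does not show whether the mRNA was spliced.

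Atf6, by contrast, was at 28.2, 26.9 and 27.0 FPKM in the control libraries, 26.7, 31.8 and 24.9 with Zmiz1, 17.9, 17.3 and 14.7 with Notch1, and 18.3, 18.0 and 18.0 with both. All 6 libraries with the mutant were below all 6 without it. Atf6 fell by 0.69 ± 0.09 with Notch1 (adjusted p = 0.00133), by 0.59 ± 0.09 in combined against Zmiz1 libraries (adjusted p = 0.00471) and by 0.57 ± 0.09 in combined against control libraries (adjusted p = 0.00390). With the 8 libraries of replicate numbers 2 and 3 only, these differences were -0.72, -0.62 and -0.56 and no longer passed (adjusted p = 0.0628, 0.115 and 0.118). The second was also lost with only the compared groups in the fit (adjusted p = 0.0505).

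Ern1, which encodes the IRE1 kinase and nuclease, was at 6.05, 7.26 and 7.40 FPKM in the control libraries, 6.87, 11.4 and 8.11 with Zmiz1, 4.07, 4.87 and 2.42 with Notch1, and 4.27, 5.21 and 5.11 with both. Libraries with the mutant were again all below those without it, with the highest value in Zmiz1 replicate 2 and the lowest in Notch1 replicate 3. The differences of -0.75 ± 0.20 with Notch1 (adjusted p = 0.0597) and -0.72 ± 0.20 in combined against Zmiz1 libraries (adjusted p = 0.0879) did not pass. The first passed without Zmiz1 replicate 2 or without Notch1 replicate 2 (adjusted p = 0.0293 to 0.0444), and the second without Notch1 replicate 3 (adjusted p = 0.0324). The first also passed with quantile normalization (adjusted p = 0.0447) and with robust variances (adjusted p = 0.0405). Eif2ak3 (PERK) lay between 14.6 and 17.9 FPKM in all 12 libraries and was at 0.03 ± 0.07 and 0.10 ± 0.07, with adjusted p-values of 0.852 and 0.493. The 95% interval of its Notch1 difference ran from -0.11 to 0.18. Mbtps1 and Mbtps2, the Golgi proteases that release ATF6, did not pass, and Mbtps1 was at 54.9 FPKM in Zmiz1 replicate 2 against 35.2 to 41.6 in the other 11 libraries.

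In ER-associated degradation, 2 of 7 tested genes rose with Notch1, 3 in combined against Zmiz1 and 5 in combined against control libraries, with medians of 0.16, 0.25 and 0.32. Herpud1, an ER membrane protein that organizes the degradation complex, was at 29.9, 28.6 and 27.1 FPKM in the control libraries, 31.7, 22.5 and 32.8 with Zmiz1, 44.7, 44.6 and 45.7 with Notch1, and 58.6, 58.3 and 58.6 with both. Groups with and without the mutant were apart, and Zmiz1 replicate 2 was again the lowest library. Herpud1 rose by 0.64 ± 0.11 (adjusted p = 0.00762) and 1.01 ± 0.11 (adjusted p = 0.000517). Syvn1, the ubiquitin ligase HRD1 at the core of the complex, rose by 0.26 ± 0.06 (adjusted p = 0.0306) and 0.34 ± 0.06 (adjusted p = 0.0103). Its first call was lost without any 1 control library or without Notch1 replicate 2 or 3 (adjusted p = 0.0887 to 0.118), and its second without combined replicate 3 (adjusted p = 0.0607) or with only the compared groups in the fit (adjusted p = 0.103). Its partner Sel1l was at 0.11 and 0.25 and passed in combined against control libraries, with 0.30 ± 0.08 (adjusted p = 0.0488), a call lost in 9 of 12 fits without 1 library (adjusted p = 0.0638 to 0.170; it held without Zmiz1 replicate 2, Notch1 replicate 1 or Notch1 replicate 3). Median ratio scaling, quantile normalization, no filter, no intensity trend and robust variances each ended that call too (adjusted p = 0.0531 to 0.0818).

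Edem1 and Edem2 pick out misfolded glycoproteins by trimming their mannose. Edem1 was the most abundant of the 47 genes per length, with a mean of 493 FPKM over the 12 libraries, above Calr (329) and Hspa5 (247). It was at 461, 412 and 415 FPKM in the control libraries, 570.3, 507 and 506 with Zmiz1, 513, 440.4 and 428 with Notch1, and 597, 519 and 544 with both. The Zmiz1 libraries were all above the control libraries and the combined all above the Notch1 libraries, while Notch1 overlapped control. Its differences were 0.30 ± 0.09 for Zmiz1 against control (adjusted p = 0.144), 0.10 ± 0.09 for Notch1 against control (adjusted p = 0.617) and 0.37 ± 0.09 for combined against control (adjusted p = 0.0316). Only the last passed, and it was lost without control replicate 2 or 3 or any 1 combined library (adjusted p = 0.0569 to 0.129). It was also lost with median ratio scaling and quantile normalization (adjusted p = 0.0573 and 0.142). Edem2 was at 0.23 ± 0.06 with Notch1 (adjusted p = 0.0583) and rose by 0.40 ± 0.06 in combined against Zmiz1 libraries (adjusted p = 0.00423; 0.0776 with only the compared groups in the fit).

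Derlins form the membrane passage out of the ER. Derl1 and Derl2 were at 0.06 and 0.16 with Notch1 and did not pass in any comparison. Derl3, the derlin known from secretory cells, was low throughout, at 0.0961, 0.0513 and 0.159 FPKM in the control libraries, 0.0793, 0.101 and 0.131 with Zmiz1, 0.436, 0.715 and 0.953 with Notch1, and 1.56, 1.11 and 1.52 with both. Every library with the mutant was above every library without it and the combined above the Notch1 libraries, but at under 1 FPKM on average it was not tested in the main fit. In the fit without a filter on low values, Derl3 passed in Notch1 against control, combined against Zmiz1 and combined against control libraries.

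In the translocon and signal peptidase, 1 of 9 genes rose with Notch1, 3 in combined against Zmiz1 and 5 in combined against control libraries. All 9 differences were above 0 in each of these comparisons, with medians of 0.28, 0.36 and 0.40. Of all 10152 genes, 5758, 5583 and 5736 were above 0. Sec61a1, the channel subunit, was at 67.8, 62.6 and 61.6 FPKM in the control libraries, 67.0, 62.9 and 66.0 with Zmiz1, 82.8, 78.3 and 74.0 with Notch1, and 97.2, 93.3 and 90.6 with both. Libraries with the mutant were above those without it. It rose by 0.29 ± 0.06 (adjusted p = 0.0203) and 0.51 ± 0.06 (adjusted p = 0.000740), and the first call was lost without control replicate 2 or 3 or Notch1 replicate 1 or 2 (adjusted p = 0.0565 to 0.0951), with quantile normalization (0.0865) and with only the compared groups in the fit (0.0717).

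Sec61b, the small beta subunit, and Sec11c, a signal peptidase subunit, rose in combined against Zmiz1 libraries by 0.51 ± 0.11 and 0.36 ± 0.08 (adjusted p = 0.0338 and 0.0335). With Notch1 against control they were at 0.44 ± 0.11 and 0.32 ± 0.08, just over the threshold (adjusted p = 0.0522 and 0.0509). Their calls in combined against Zmiz1 were lost in 9 and 8 of the 12 fits without 1 library, at adjusted p-values up to 0.158 and 0.122. For both these were the fits without control replicate 2 or 3, any Zmiz1 library or any combined library, and for Sec61b also the fits without Notch1 replicate 2 and without a filter on low values. Of the Ssr genes, which encode the translocon-associated TRAP complex, Ssr1 rose in combined against control libraries by 0.36 ± 0.09 (adjusted p = 0.0450), and so did the signal peptidase subunit Spcs3, by 0.53 ± 0.13 (adjusted p = 0.0409). These calls were lost in 9 and 6 of the 12 fits (adjusted p up to 0.168 and 0.158): both without control replicate 2 or 3, Notch1 replicate 2 or any combined library, and Ssr1 also without control replicate 1, Zmiz1 replicate 3 or Notch1 replicate 3. Both were also lost with no filter, median ratio scaling or quantile normalization (adjusted p = 0.0605 to 0.0802). Ssr2, Ssr3, Ssr4 and Spcs2 passed in no comparison of the main fit. With a term for the replicate number, Ssr2, Ssr3 and Ssr4 passed in combined against Zmiz1 libraries. Ssr3 then also passed with Notch1 and with both against control.

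No ER gene of the 46 passed the test with Zmiz1 on its own. In Zmiz1 against control libraries the median over the 46 was 0.01 (0.00 over all genes) and single differences ran from -0.21 (Sdf2l1) to 0.30 (Edem1). The 95% interval was -0.24 to 0.22 for Hspa5, -0.06 to 0.24 for Xbp1 and -0.11 to 0.24 for Hyou1, so rises of the size seen with Notch1 lay outside it for these genes. Txndc5 and Edem1 were the 2 genes under an unadjusted p of 0.05, and the only ones of the 46 whose Zmiz1 libraries were all above control (8.75% of all genes).

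With the Notch1 mutant present, the addition of Zmiz1 went with higher levels of a few of the genes. In combined against Notch1 libraries 5 of 46 rose and 0 fell, where 0.827% of all genes rose and 0.680% fell. The 5 were Hyou1 (0.59 ± 0.08, adjusted p = 0.00305), Manf (0.39 ± 0.07, 0.0230), Hsp90b1 (0.40 ± 0.08, 0.0415), Txndc5 (0.27 ± 0.06, 0.0420) and Calr (0.37 ± 0.08, 0.0428). Hspa5 was at 0.45 ± 0.10 (adjusted p = 0.0696) and Sdf2l1 at 0.39 ± 0.12 (adjusted p = 0.187). The median over the 46 was 0.15, against -0.00 over all genes tested. For 20 of the 46, all higher, the combined and Notch1 libraries did not overlap (7.60% of all genes were higher without overlap).

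This count of 5 turned on single libraries. It was 2 without any 1 control library, 3 without Zmiz1 replicate 1, 13 without Zmiz1 replicate 2 and 4 without Zmiz1 replicate 3. It was 2, 1 and 2 without Notch1 replicate 1, 2 and 3, and 1 without any 1 combined library. Hspa5, Sdf2l1 and Xbp1 passed without Zmiz1 replicate 2, at adjusted p-values of 3.24e-04, 0.0227 and 0.0308, although that library enters this comparison only through the shared estimate of the spread. With replicate numbers 2 and 3 only, 0 of 46 passed by limma. With only the compared groups in the fit, 4 passed, of which Hyou1 alone was among the 5; Hspa5, Pdia4 and Herpud1 passed in place of Manf, Hsp90b1, Txndc5 and Calr.

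The difference between the Notch1 effect with and without Zmiz1, the interaction, was tested directly. In simulated data this test found 4.2% of interactions of 0.3 and 49.2% of those of 0.585, so small ones would mostly be missed. None of the 46 genes passed (0 of 46 by limma, 11 under an unadjusted p of 0.05), where 0.0690% of all 10152 genes passed and 3.27% were under an unadjusted p of 0.05. The interaction was above 0 for 42 of the 46 and for 5093 of all 10152 genes, with a median of 0.11 against 0.00 over all genes. It was 0.53 ± 0.11 for Hyou1 (adjusted p = 0.366), 0.60 ± 0.16 for Sdf2l1 (adjusted p = 0.923) and 0.54 ± 0.13 for Pdia4 (adjusted p = 0.679). For Hspa5 it was 0.47 (adjusted p = 0.999). Its 95% interval of 0.14 to 0.79 is not adjusted for the number of genes. Over the alternative fits the Hspa5 value ran from 0.312 to 0.563. Zmiz1 replicate 2 was the lowest of the 12 libraries in many of the 46 genes. Among them were Hspa5, Hsp90b1, Sdf2l1, Dnajb9, Dnajc3, Pdia4, Pdia6, Calr, Xbp1, Edem2 and Herpud1. That library was the highest in Atf6, Ern1 and Mbtps1. Without it the median interaction over the 46 was 0.0885, and without Zmiz1 replicate 1 it was 0.171. Over all fits without 1 library, 38 to 43 of the 46 were above 0. In the limma fit without a filter, Zmiz1 itself was lower in combined than in Zmiz1 libraries, by 0.51 ± 0.05 (adjusted p = 0.000702). Its interaction was -0.56 ± 0.08 (adjusted p = 0.0337). Combined and Zmiz1 libraries thus differed in the level of Zmiz1 as well as in the Notch1 mutant. The part of this in the ER results was not tested.

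**Figure D3:**
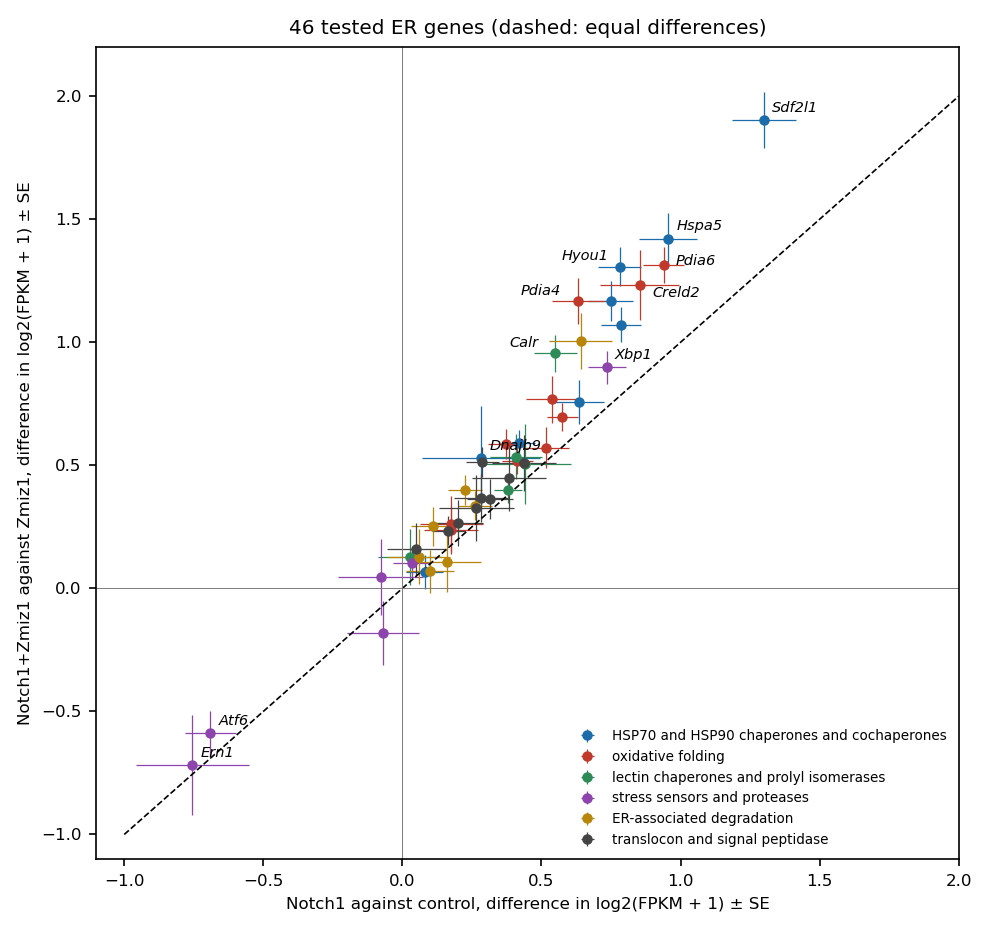
Each point is 1 of the 46 tested genes, colored by role: the difference in log2(FPKM + 1) between Notch1 and control libraries on the x axis and between combined and Zmiz1 libraries on the y axis, with bars of 1 SE. Genes with large differences lie above the dashed line of equal differences, up to Sdf2l1 at 1.30 and 1.90, but the distance from the line passed the test for none of the 46.

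Genes with an ERSE in the promoter window can be set beside the others. Of the 9 tested genes with the motif, all 9 rose in Notch1 against control, in combined against Zmiz1 and in combined against control libraries, with medians of 0.63, 0.95 and 0.92, and 2 rose in combined against Notch1 libraries. Herpud1 with the ERSE-II and both genes with the UPRE also rose in the first 3 comparisons. Of 25 tested genes with no exact match of the 3 motifs, 7, 9 and 12 rose, with medians of 0.23, 0.33 and 0.36. Sdf2l1, Pdia4 and Xbp1 were among them. These genes may hold near matches, which were not searched for. Hyou1, Manf, Sec61a1 and Atf6 had no promoter entry and belong to neither class. Outside the 47 genes, 18 further genes of the table held the ERSE. Only 6 of these were tested, and 0 rose with Notch1 and 1 (Alg12) in combined against Zmiz1 libraries. A match of letters is no measure of binding, and the choice of members by function and the motif go together.

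**Figure D4:**
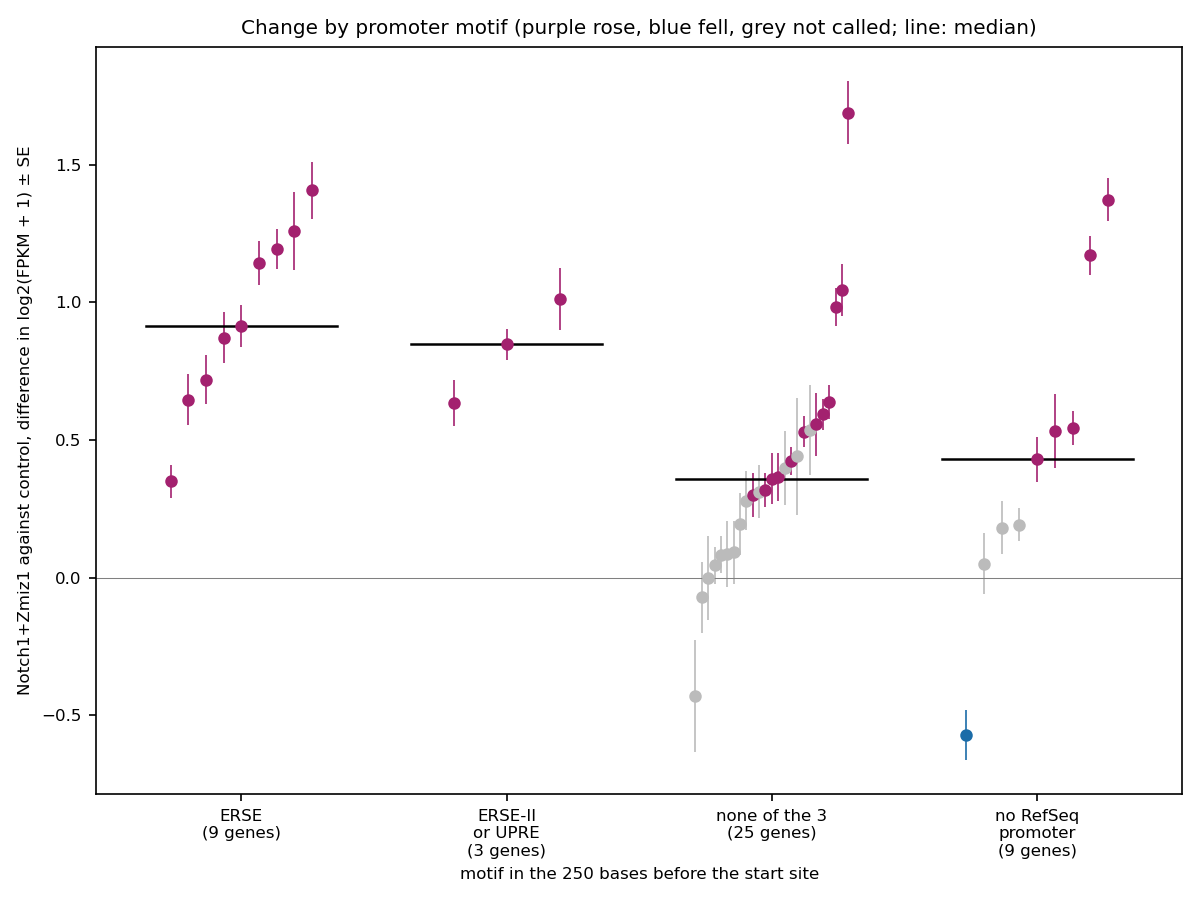
Difference in log2(FPKM + 1) ± SE between combined and control libraries for the 46 tested genes, grouped by the motif in the 250 bases before the start site. The last class holds genes without a RefSeq promoter entry, which were not searched: Hyou1, Manf, Erp29, Atf6, Derl1, Sec61a1, Ssr2, Sec11c and Spcs3. Purple marks genes that rose, blue Atf6, which fell, and grey genes that did not pass. All 9 genes with the ERSE and all 3 with the ERSE-II or UPRE rose, as did 12 of 25 with none of the 3, and the black lines mark the medians of 0.92 with the ERSE and 0.36 with none.

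Further genes of the pathway, in lists that hold none of the 47, are given by their counts. Of 24 other ER folding genes, 1 rose with Notch1 (Pdia5, 0.64 ± 0.14), 3 in combined against Zmiz1 libraries (Pdia5, Fkbp7 and Sil1) and 1 in combined against control (Sil1, 0.38 ± 0.09). The call of Fkbp7 was lost without combined replicate 1 or 2 (adjusted p = 0.0736 to 0.0852), and that of Sil1 against control without any 1 control or combined library (adjusted p = 0.0631 to 0.145). Of 22 other degradation genes 1 rose with Notch1 and in combined against Zmiz1 libraries, H47, known as the VCP-binding selenoprotein VIMP, at 0.33 ± 0.08 and 0.86 ± 0.08. In combined against control libraries H47 and Ube2g2, a ubiquitin-conjugating enzyme of the pathway, rose by 0.70 ± 0.08 and 0.19 ± 0.05. The call of Ube2g2 (adjusted p = 0.0423) was lost without any 1 control or combined library or Zmiz1 replicate 1 or 3 (adjusted p = 0.0506 to 0.161), and with either scaling, no trend or robust variances. In combined against Notch1 libraries H47 was at 0.36 ± 0.08 (adjusted p = 0.0482), a call that held without Zmiz1 replicate 2 or Notch1 replicate 3 and was lost in the other 10 fits without 1 library (adjusted p = 0.0541 to 0.210). Of 23 genes of targeting, translocon and N-glycosylation, 6 and 7 rose in those comparisons, led by Magt1 (0.45) and Sec61g (0.42) with Notch1 and by Rpn1 (0.71) and Magt1 (0.64) in combined against Zmiz1 libraries. Rpn1 and Magt1 belong to the oligosaccharyltransferase, which joins sugar chains to proteins at the channel. The medians of these 3 lists with Notch1 were 0.07, 0.04 and 0.19, against 0.34 over the 46 genes. The calls with Notch1 of Pdia5, H47, Magt1 and Sec61g were each lost in 3 to 6 fits without 1 library, at adjusted p-values of 0.0511 to 0.123. For Pdia5 the libraries were control replicate 1 or 3 and Notch1 replicate 2 or 3, and for H47 any control library, Notch1 replicate 2 or 3 and combined replicate 1. For Magt1 they were any control library and Notch1 replicate 1 or 2, and for Sec61g control replicate 1 or 3 and Notch1 replicate 3.

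Of 22 genes of transport from the ER to the Golgi, 1 rose with Notch1 and 7 in combined against Zmiz1 libraries. Sec24d, a cargo adaptor of COPII vesicles, led in both: it was at 1.30, 1.27 and 1.40 FPKM in the control libraries, 1.87, 1.71 and 1.78 with Zmiz1, 3.58, 3.43 and 3.23 with Notch1, and 5.29, 5.35 and 6.07 with both. The 4 groups did not overlap. It rose by 0.93 ± 0.07 with Notch1 (adjusted p = 2.89e-05), 1.24 ± 0.07 in combined against Zmiz1 (adjusted p = 2.78e-06) and 0.57 ± 0.07 in combined against Notch1 libraries (adjusted p = 0.00168). Tmed3, a cargo receptor of the p24 family, rose by 0.59 ± 0.10 in combined against Zmiz1 libraries (adjusted p = 0.00877) and by 0.48 ± 0.10 against control (adjusted p = 0.0184). The second call was lost without control replicate 1 or 3 or any 1 combined library (adjusted p = 0.0591 to 0.0849).

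Of the 10 tested genes of the PERK and ATF4 branch, Atf4 alone rose with Notch1 (0.31 ± 0.07, adjusted p = 0.0222; lost without control replicate 1 or 2, at 0.0841 and 0.102) and in combined against control libraries (0.45 ± 0.07, adjusted p = 0.00204). Trib3 alone rose in combined against Zmiz1 libraries (0.74 ± 0.14, adjusted p = 0.0163; lost without combined replicate 2 or 3, at 0.0554 to 0.0855). Ddit3, which encodes CHOP, was at 18.6, 21.9 and 27.0 FPKM in the control libraries, 19.2, 21.4 and 26.7 with Zmiz1, 17.2, 22.6 and 28.6 with Notch1, and 20.0, 25.7 and 25.9 with both. Its 4 groups overlapped, and it passed in no comparison.

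Among 14 regulators of stress signaling, Wfs1, an ER membrane protein that restrains ATF6, was the gene of these lists that followed Zmiz1. It was at 0.682, 0.673 and 0.643 FPKM in the control libraries, 5.13, 8.67 and 5.50 with Zmiz1, 0.441, 0.418 and 0.321 with Notch1, and 2.92, 3.08 and 2.91 with both. All libraries with Zmiz1 were above all without it, and among them the combined were below the Zmiz1 libraries. Wfs1 rose by 2.13 ± 0.14 with Zmiz1 against control (adjusted p = 1.77e-05) and by 1.51 ± 0.14 in combined against Notch1 libraries (adjusted p = 0.000292), and fell by 0.87 ± 0.14 in combined against Zmiz1 libraries (adjusted p = 0.00621). Creb3l2, a transcription factor of the ATF6 type, rose by 0.68 ± 0.10 in combined against Zmiz1 libraries (adjusted p = 0.00453). No other gene of these lists passed in Zmiz1 against control libraries, and none passed in the interaction.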

How the data were processed

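RNA was measured in 12 libraries of the line 8946, 3 in each of 4 vector groups, made with a TruSeq mRNA v2 kit per the labels' protocols. That kit does not mark strand. Each deposited file gives FPKM for every gene symbol, per the file headers. Per the submitters' processing notes, the authors used Cuffdiff 2.1.1, Cufflinks, Bowtie2 2.1.0.0 and TopHat2 2.0.9 on build mm10, with FastQC 0.10.0. The annotation, the scaling between libraries and the assignment of reads shared by near-identical copies are not given in the sources used here. FPKM summed to 549098 to 606908 per library, and 14233 to 14554 genes were above 0. There were no counts, so no counting interval is given. Against control replicate 1 as the reference, the most common ratio of low values, shared by 47 to 321 genes in each of the other 11 libraries, put relative depths between 0.747 (Zmiz1 replicate 2) and 1.13 (Notch1 replicate 1).

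One limma model (version 3.58.1, R 4.3.3) of the 4 group means was fitted to log2(FPKM + 1) of the 10152 genes that averaged 1 FPKM or more, with an intensity trend, two-sided tests and Benjamini-Hochberg adjustment over all genes at 0.05. It gave 5 comparisons and the interaction. With 3 libraries a group, an exact permutation test has 0.1 as its smallest p. Differences on this scale understate changes of low genes. The pipeline was tested on simulated data. A log2 difference of 0.3 was found in 24.4% of changed genes for Notch1 against control and 4.2% for the interaction. At 0.585 these shares were 81.8% and 49.2%. Alternatives were a pseudocount of 0.1, no filter or one at 5 FPKM, quantile normalization, median ratio scaling, a replicate block, no trend, robust variances, only the groups compared, and each library left out in turn. The fit of replicate numbers 2 and 3 only and the left-out libraries for the median interaction were added once the data had been seen, hence chosen after seeing the data.

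The 47 genes, their roles and the other lists were chosen with earlier results of these data known. Genes named were all of the 47 that passed, Hspa5, Hsp90b1, Sdf2l1, Xbp1, Atf6, Ern1 and Eif2ak3 in any case, and of the other lists the 2 with the largest called change per comparison. The remaining genes of the 47 are named for completeness, and Ddit3, Alg12, Itgam, Cd68 and Elane were named after their values were seen. One listed gene (March6) was not matched to the table. Motifs were searched in RefSeq promoter sequences. Plots used matplotlib 3.10.9 under Python 3.11.15.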

Additional observations from a re-analysis of the deposited data

How the results depend on the processing

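Outside the replicate block and single left-out libraries, the number of the 46 genes called ran from 18 to 26 in Notch1 against control (23 as reported), 21 to 27 in combined against Zmiz1 (26) and 25 to 35 in combined against control libraries (30), and stayed at 0 for Zmiz1 against control and for the interaction, which has no fit of only the groups compared. In combined against Notch1 libraries it was 3 without a filter on low values and 0 with replicate numbers 2 and 3 only, against 5 as reported, and the cause was not tested. With 1 library left out, the counts ran from 20 to 26, 23 to 30, 24 to 31, 0 to 0, 1 to 13 (combined against Notch1) and 0 to 0. The median interaction over the 46 ran from 0.0885 to 0.171 in these fits. Deviations from the group means correlated at -0.176 to 0.267 between libraries of the same number (6 of 18 over 0.1). Between libraries of different numbers 4 of 36 were over 0.1, and 2 of 12 libraries correlated best with their own number. These weak correlations cannot show that the replicates were unpaired, since replicate number 1 stood apart in all 4 groups. The main fit has no term for this. With the replicate block, 31, 35 and 32 genes were called in the first 3 comparisons, 1 (Edem1) in Zmiz1 against control, 10 in combined against Notch1 and 0 in the interaction, and Ern1 was among those of the first and the second (adjusted p = 0.0289 and 0.0440). Fkbp2 and Ssr3 were called with the block in each of the first 3 comparisons. In combined against Zmiz1 it also called Dnajb9, Erp44, Ssr2 and Ssr4. No reported call of the 46 genes was lost with the block, so those of Canx, Sec61a1, Edem1, Ssr1 and Spcs3 held there. With replicate numbers 2 and 3 only, Pdia4, Ero1lb, Herpud1, Syvn1, Sec61a1 and Atf6 no longer passed in Notch1 against control. With only the compared groups in the fit, Txndc11, H47, Atf4, Magt1 and Sec61g no longer passed in Notch1 against control (adjusted p = 0.0517 to 0.107), nor did Fkbp7, Trib3 and Wfs1 in combined against Zmiz1 (0.0883 to 0.128). H47 was also lost in the former with quantile normalization (0.0535), Magt1 with median ratio scaling (0.0513) and Pdia5 with a pseudocount of 0.1 (0.0644). In combined against Notch1, Calr was lost with no filter, a filter at 5 FPKM and quantile normalization (0.0511 to 0.0567), Hsp90b1 with no filter (0.0505), Txndc5 with robust variances (0.0649), and H47 with these filters, quantile normalization, the replicate block, no trend or only the compared groups (0.0503 to 0.141). Reversals were of small differences that did not pass. In Zmiz1 against control, with 1 library left out, Hspa5 ran from -0.0935 to 0.140, Hsp90b1 from -0.0840 to 0.0753, Atf6 from -0.0819 to 0.0887 and Eif2ak3 from -0.0735 to 0.0195, with the turned sign without Zmiz1 replicate 2 in the first 3 and without control replicate 3 or Zmiz1 replicate 1 in Eif2ak3. Atf6 was at -0.00661 with quantile normalization and Eif2ak3 at 0.00381 with replicate numbers 2 and 3 only. The interaction of Ern1 ran from -0.189 to 0.221 and was below 0 without control replicate 3, Zmiz1 replicate 1 or 3, Notch1 replicate 3 or combined replicate 2. Depth is known only in relative terms, which limits genes near 1 FPKM such as Derl3, Wfs1 and Pdia5.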

Other observations

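Replicate number 1 stood apart from numbers 2 and 3 in all 4 groups. Of the 46 tested ER genes, 14 had their highest value of each group in replicate 1, among them Edem1, Canx, Derl1, Ssr3, Spcs3 and Mbtps2, and 3 (Creld2, Erp29 and Fkbp2) had their lowest there. Over all 10152 genes tested the shares were 11.5% and 14.5%. For replicates 2 and 3 the number of ER genes was 0 in each case, against 1.57% to 2.61% of all genes. Mbtps2 shows the pattern: replicate 1 was at 8.02, 7.61, 6.84 and 7.96 FPKM in control, Zmiz1, Notch1 and combined libraries, and the other 8 libraries lay between 5.51 and 6.12. The labels give no date, lane or preparation for any library.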
